A study of Mus musculus with 6 samples.

Results

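On an expression array a probe set is the group of probes whose signals are summarised into 1 value, and some probe sets are annotated to more than 1 gene. The probe sets described here were chosen by annotation and level: their platform annotation gives 2 or more gene symbols with different Entrez IDs, and their mean log2 value over all 6 arrays was at least 1.92, the median of all probe set means. The difference between the groups played no part in that rule. There were 759 of them among 65956 probe sets, and a further 562 with several genes lay under that level. Such a probe set measures its genes jointly, so each is called here by all its symbols and none of its values is read as the level of 1 gene. They matter because 1171 current RefSeq genes on them had no probe set of their own and could be followed in these cells in no other way.

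The arrays were hybridised with RNA of Lineage- c-Kit+ Sca1+ (LSK) cells, the sorted bone marrow fraction of mice that is rich in blood stem cells and multipotent progenitors. The 3 knockout arrays came from mice with both miR-21 alleles floxed and the Mx1-Cre transgene, and the 3 control arrays from Cre-negative littermates whose miR-21 alleles were floxed too. All mice were given 7 injections of 250 µg pIpC, an RNA analogue that raises interferon and so turns on the Mx1 promoter, first at 4 to 6 weeks of age, and were used 4 weeks after the injections. Since only the knockout mice carried Cre, its effects and those of miR-21 loss cannot be told apart, and the labels call the samples biological replicates without saying if an array stands for 1 mouse or a pool, so the p-values rest on a spread between arrays that may be technical. Mx1-Cre acts in interferon-responsive cells beyond the blood. In sorted bulk RNA, fewer cells of a type and less RNA per cell cannot be told apart.

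Genes come to share a probe set in different ways. Many microRNAs and small nucleolar RNAs are cut out of the transcript of a larger host gene, so that probes on the host cover them as well. Replication-dependent histone genes lie in clusters as near-identical copies whose mRNAs are made in S phase, and processed pseudogenes are copies of mRNAs in the genome that can keep most of the parent sequence. Of the 759 probe sets, 181 held a microRNA gene, 174 held coding genes with like names such as members of 1 family, 136 a gene with a pseudogene, 121 coding genes with unlike names, 37 histone genes, 31 a small nucleolar RNA gene, 7 antigen receptor, olfactory or vomeronasal genes and 3 genes of the mitochondrial genome. The others were 33 of further kinds and 36 whose symbols now stand for fewer than 2 genes. In the RefSeq table the genes of 260 probe sets had spans that overlap, those of 320 lay apart on the same chromosome, and those of 142 lay on different chromosomes.

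The microRNAs on which the results below turn are shown first as mature sequences from RefSeq (GRCm38.p6), with the seed, bases 2 to 8 from the 5′ end, in capitals. They show which of them share a seed, the stretch that pairs with target mRNAs, and so which could share targets.
miR-21a-5p: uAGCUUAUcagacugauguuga
miR-223-3p: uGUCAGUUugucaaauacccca
miR-17-5p: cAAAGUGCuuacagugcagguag
miR-20a-5p: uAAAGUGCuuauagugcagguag
miR-93-5p: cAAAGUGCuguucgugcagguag
miR-18a-5p: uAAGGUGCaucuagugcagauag
miR-19a-3p: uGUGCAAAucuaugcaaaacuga
miR-19b-3p: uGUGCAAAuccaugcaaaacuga
miR-92a-3p: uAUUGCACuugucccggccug
miR-25-3p: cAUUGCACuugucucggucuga
miR-29b-3p: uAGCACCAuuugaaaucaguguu
miR-29c-3p: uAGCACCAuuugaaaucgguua
miR-27b-3p: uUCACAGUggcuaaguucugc
miR-24-3p: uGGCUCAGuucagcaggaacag
miR-10a-5p: uACCCUGUagauccgaauuugug
miR-196b-5p: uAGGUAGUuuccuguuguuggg
In these letters miR-17-5p, miR-20a-5p and miR-93-5p have the seed AAAGUGC, miR-92a-3p and miR-25-3p have AUUGCAC, and both miR-29 members have AGCACCA. The deleted microRNA, miR-21a-5p, lies at chr11:86584120-86584141 on the minus strand, and miR-223-3p at chrX:96242884-96242905 on the plus strand. Of the 202 microRNA genes on the 759 probe sets, 179 had a mature sequence in the RefSeq table, with 272 different seeds, and 10 seeds occurred on 2 or more probe sets. The arrays measured the shared probe set, in which a microRNA cannot be told apart from the transcript that it lies in.

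Knockout and control were compared with limma over all 32985 probe sets at or above the level, with p-values adjusted over all of them and a threshold of 0.05. Of the 759 probe sets with several genes, 129 were higher in the knockout (17.0%) and 67 were lower (8.83%), together 25.8%. The background was 24.9% of all probe sets fitted, with 11.5% higher and 13.4% lower, and 25.0% of the probe sets with 1 gene, with 14.9% higher and 10.1% lower. The share called was thus close to that of the array at large, and the median difference, knockout minus control, was 0.06 on the log2 scale against 0.04 over all probe sets fitted. Knockout and control arrays were fully separated for 400 of the 759 (52.7%), against 45.0% of all probe sets fitted and 48.2% of those with 1 gene. Differences were mostly small, with a median size of 0.38 among those that passed, and a fold of at least 1.5 was reached by 19 that were higher and 7 that were lower.

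The number of calls depended on single arrays. The number higher was 75 without knockout replicate 1, 67 without knockout replicate 3 and 76 without control replicate 2, and the number lower was 43 without control replicate 1. Of the 196 calls, 102 were made again with each array left out in turn, 63 of them higher and 39 lower, and 13 were made in none of those 6 fits. Of the passing probe sets, 193 held at least 1 gene with no probe set of its own (126 higher, 67 lower), and 311 such genes were on them. None of these 311 genes lay on passing probe sets of both directions. A gene on only 1 of the probe sets with several genes could not do so. That held for 966 of the 1171 genes with no probe set of their own, and 205 were on 2 or more. The absence is therefore not read as agreement between probe sets.

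The plot of differences by kind of gene sharing gives the values behind the following counts. Histone probe sets stood at a median difference of 0.48, with 31 of 37 higher and 0 lower. The microRNA probe sets had 22 higher and 26 lower of 181, 26.5% called against 24.9% of all probe sets fitted, with a median of 0.02, and so were close to the array at large. Probe sets of a gene with a pseudogene had 17 higher and 11 lower of 136, and those of small nucleolar RNAs 4 and 4 of 31. No test of 1 kind against another was made, and members of a kind that share genes are not independent of each other.

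**Figure D1:**
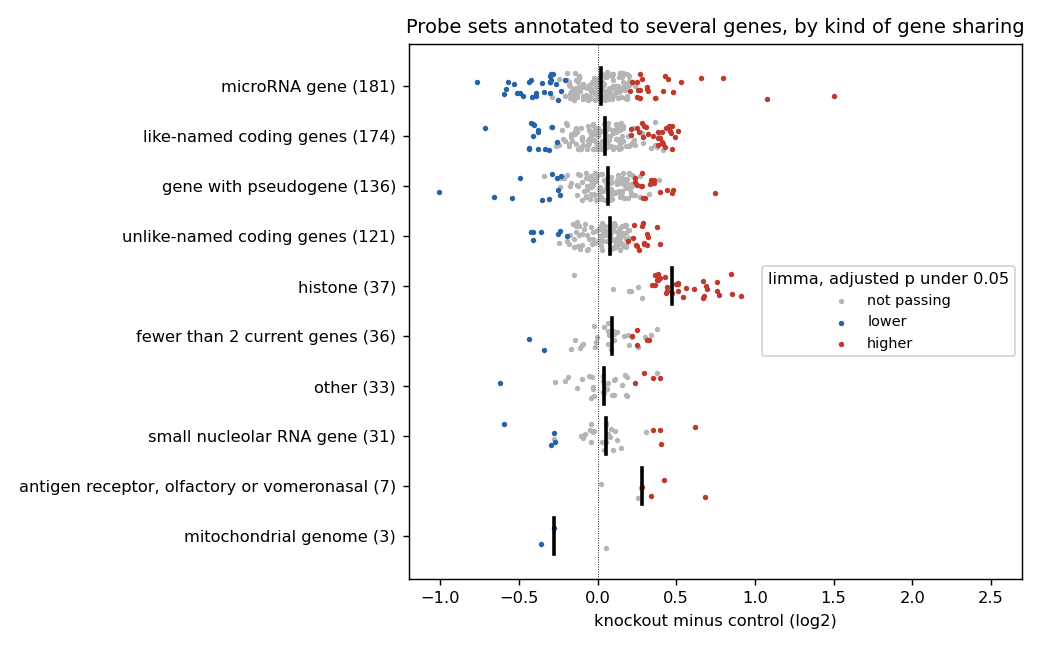
Each point is 1 of the 759 probe sets annotated to several genes, by kind of gene sharing (number in brackets), and the x axis is the knockout mean minus the control mean in log2 units, with 3 arrays per group. Black bars are medians of a kind. Points for histones lie to the right, around their median of 0.48, while those for microRNA genes lie on both sides of 0.

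The probe set of the deleted locus, Vmp1/Mir21a, did not differ. Vmp1 encodes a membrane protein of autophagy, and the miR-21 gene lies at the end of it. The knockout arrays read 5.65, 5.64 and 5.76 and the control arrays 5.65, 5.60 and 5.63 on the log2 scale, so that the groups overlapped, with a difference of 0.05 ± 0.06 (SE, limma adjusted p 0.592). A probe set that covers the host transcript as well does not check the deletion.

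Mir223/F630028O10Rik had the largest difference of all 759. miR-223 is a microRNA of the myeloid lineage that restrains the making of granulocytes, and F630028O10Rik is the transcript it lies in. The 3 knockout arrays read 6.60, 6.43 and 6.72 and the 3 control arrays 5.33, 4.71 and 5.20. Every knockout array was above every control array, and the knockout was 2.83-fold higher (log2 difference 1.5 ± 0.16 SE, limma adjusted p 0.000614).

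Slpi/Mir7678 was the next highest. Slpi encodes a secreted inhibitor of neutrophil elastase and related proteases. Its knockout values were 5.21, 5.03 and 5.52 and its control values 4.30, 4.11 and 4.12, which did not overlap, a 2.11-fold higher level (1.07 ± 0.12 SE, limma adjusted p 0.000929). Of 10 neutrophil markers with a probe set of their own, 10 were higher in the knockout, against 11.5% of all probe sets fitted. Their mean log2 level per array was 4.94 to 5.07 in the knockout and 3.71 to 3.93 in control. Of 5 mast cell and basophil markers 4 were higher and 1 lay under the level, and of 8 monocyte and macrophage markers with a probe set 3 were higher and 2 lay under the level. Fcer1a of the former and Ccr2 of the latter had control means of 1.70 and 1.83, under the level, and entered through the knockout arrays alone. Itgam, a myeloid integrin outside these lists, was lower by a log2 difference of -0.43. The part of neutrophils, mast cells, basophils, monocytes and macrophages in the results was not tested.

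The LSK gate and the lineage markers it removes were looked at in single-gene probe sets. Kit, the gate's receptor, was lower in the knockout by a log2 difference of -0.46, as were Flt3 (-0.47) and Procr (-0.46), while Slamf1 was higher by 0.54 and Cd34 differed by -0.16 (limma adjusted p 0.0761). Ly6a, the Sca-1 gene of the gate, was on no probe set in the annotation, neither alone nor shared. Of the 8 lineage markers with a probe set of their own, 2 were higher, Ly6g of neutrophils at 0.38 and Klrb1c of natural killer cells at 0.55, the latter with a control mean of 1.85 under the level. Another 2 were lower, the myeloid integrin Itgam at -0.43 and Ptprc at -0.37, the CD45 gene that blood stem cells express as well. The T cell markers Cd3e (2.08 to 2.38 over the 6 arrays) and Cd4 (2.27 to 2.39) lay near the level and did not pass, and nor did Cd8a or Cd79a. Of 5 T and NK cell markers with a probe set, Nkg7 was higher by 0.53, and the other 4 lay under the level.

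Among the other microRNA probe sets that rose, Ccnf/Mir5134 read 6.57, 6.82 and 6.64 in the knockout against 5.86, 6.10 and 5.69 in control, 1.73-fold higher (limma adjusted p 0.00255). Cyclin F, the product of Ccnf, brings substrates to a ubiquitin ligase late in the cell cycle. Aopep/Mir23b/Mir27b/Mir24-1, which spans an aminopeptidase gene and the miR-23b, miR-27b and miR-24 cluster inside it, read 4.93, 4.80 and 4.78 against 4.45, 4.41 and 4.39, a log2 difference of 0.42 ± 0.07 SE (limma adjusted p 0.0039). The groups did not overlap in either, and both calls held with each array left out. Aopep also had 4 probe sets of its own, 3 of which passed at 1.24, 0.69 and 0.54 and 1 of which, with a control mean of 2.22, had a difference of -0.39 that did not pass (limma adjusted p 0.0548). Probe sets of the same gene thus did not give 1 value. Aopep/Mir23b/Mir27b/Mir24-1 lay outside the naming rule and was chosen after its values were seen.

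The lower microRNA probe sets were led by Zbtb20/Mir568. Zbtb20 encodes a zinc finger repressor of transcription, and its probe set with Mir568 read 4.27, 4.21 and 4.25 in the knockout and 5.01, 5.02 and 5.0 in control, 1.70-fold lower (log2 difference -0.77 ± 0.06 SE, limma adjusted p 0.000137). The control arrays lay within a narrow range, and none of the knockout arrays reached it. A330023F24Rik/Mir29c/Mir29b-2 covers the transcript that gives rise to miR-29c and miR-29b, which are known to act on mRNAs of DNA methyltransferases and collagens. It read 2.38, 2.23 and 2.23 against 2.91, 2.84 and 2.88, 1.51-fold lower (limma adjusted p 0.000879), at a level close to the threshold of 1.92.

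Mir17hg/Mir18/Mir20a/Mir17/Mir19a/Mir19b-1/Mir92-1 is the host of a cluster whose microRNAs favour proliferation and survival and are needed for early B cells. The knockout arrays read 4.13, 4.01 and 3.91 and the control arrays 4.57, 4.50 and 4.57, with no overlap and a log2 difference of -0.53 ± 0.07 (SE, limma adjusted p 0.00226). Mcm7/Mir93/Mir25, whose microRNAs share the seeds of miR-17-5p and miR-92a-3p shown above, holds the gene for a subunit of the replicative helicase, with both microRNAs inside it. The probe set read 7.04, 7.07 and 7.05 against 6.92, 6.84 and 6.84, a log2 difference of 0.19 ± 0.06 (SE), and missed the threshold at a limma adjusted p of 0.0527. That value fell to 0.0298 with a mean-variance trend, 0.03 with a stricter filter on dim probe sets and 0.0428 with array weights, so its call depended on the setting. Whether the values of these seed-sharing probe sets differ from each other was not tested.

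Further lower probe sets of this kind were Wdfy2/Mir8098 (-0.58), with an endosomal protein as host, Kctd12/Mir5130 (-0.57), with a partner of the GABA-B receptor as host, and Ccnd1/Mir3962 (-0.47), where Ccnd1 encodes cyclin D1, which drives cells out of G1. Ddx5/Mir3064 (-0.34) holds the gene of an RNA helicase that takes part in microRNA processing. All 4 passed, also with each array left out. Over all 181 microRNA probe sets, leaving out 1 array gave 12 to 18 higher and 20 to 23 lower, with the fewest higher (12) without knockout replicate 1 and 14 without knockout replicate 3. In 149 of the 174 with another current gene, the microRNA lay inside the span of that gene.

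**Figure D2:**
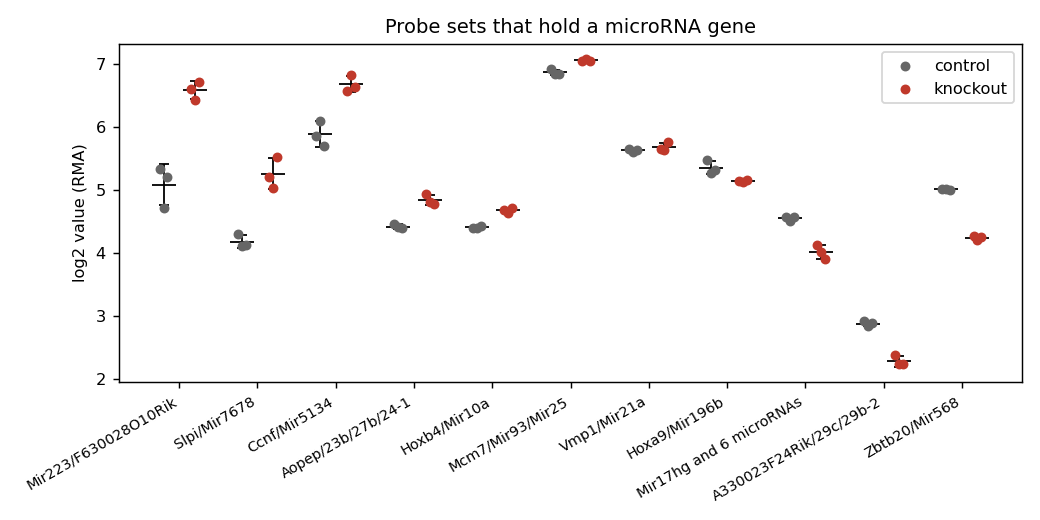
Log2 values on each array (points; grey for control, red for knockout) of 11 probe sets that hold a microRNA gene, with the mean and SD of 3 arrays in black. Knockout points lie above control points for Mir223/F630028O10Rik, overlap them for Vmp1/Mir21a and lie below them for Zbtb20/Mir568.

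Homeobox genes that act in blood stem cell self-renewal are on probe sets with microRNAs too. Hoxb4/Mir10a read 4.69, 4.63 and 4.71 in the knockout and 4.40, 4.39 and 4.43 in control, 1.21-fold higher (limma adjusted p 0.0137), a call lost without knockout replicate 1 (adjusted p 0.0512) or knockout replicate 3 (adjusted p 0.0528). Hoxa9/Mir196b read 5.14, 5.13 and 5.16 against 5.48, 5.27 and 5.31, a log2 difference of -0.21 that did not pass (limma adjusted p 0.0689) and passed with a stricter filter on dim probe sets (adjusted p 0.0412). Rag1/Iftap, which holds a gene of the enzyme that cuts antigen receptor loci in lymphoid progenitors, read 3.09, 2.94 and 3.10 against 3.03, 2.74 and 2.99 and overlapped between groups. The list of stem and lymphoid-primed progenitor genes had these 3 probe sets, of which 1 was higher.

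Small nucleolar RNAs guide the chemical modification of ribosomal and spliceosomal RNA and mostly lie in introns. Eif5/Snora28, whose host encodes a factor that acts at the choice of the start codon, read 6.99, 7.13 and 7.21 in the knockout and 7.67, 7.73 and 7.71 in control, 1.51-fold lower (limma adjusted p 0.00133). Eif4a2/Snord2/Snora81, with an RNA helicase of translation as host, had a log2 difference of -0.27 (limma adjusted p 0.034), and passed in only 1 of the 6 fits with an array left out. Snhg3/Snora73a, a non-coding host gene, went the other way at 0.62 ± 0.08 SE (limma adjusted p 0.00167), and Snora73a alone had a probe set at 0.98. Zfas1/Snord12 was higher by 0.35, while Gas5/Snord47, whose host is a growth-arrest transcript, had a difference of 0.09 (limma adjusted p 0.452). The last 3 were chosen after their values were seen. With 1 array left out, 1 to 3 of the small nucleolar RNA probe sets were lower and 4 or 5 higher. The fewest lower, 1, came without control replicate 1, knockout replicate 2 or knockout replicate 3, and 2 without control replicate 3.

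Histone probe sets rose together. Replication-dependent histone genes make the proteins that package new DNA, and 41 of the 52 RefSeq genes on these probe sets had no probe set of their own. The 37 probe sets came from only 13 different sets of genes, 46 genes were on 2 or more and 1 gene was on up to 10, so the 37 are not independent of each other. All 31 that passed were higher, 83.8% of 37 against 11.5% higher among all probe sets fitted. The groups did not overlap in 34 of the 37, all with the knockout above. Over all probe sets fitted, they did not overlap in 45.0%, counted in either direction. With 1 array left out, 27 to 31 stayed higher and 0 were lower.

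The H3 probe sets stood highest. H3c1/H3c11/H3c10/H3c8 read 5.83, 6.13 and 5.90 in the knockout and 4.91, 5.26 and 4.95 in control, 1.88-fold higher (log2 difference 0.91 ± 0.12 SE, limma adjusted p 0.0015). The same 4 genes in H3c10/H3c8/H3c11/H3c1 read 3.55, 3.97 and 3.77 against 2.87, 2.87 and 2.98, a difference of 0.85 ± 0.11 SE. All 6 H3 probe sets were higher, with a median of 0.80 and a range of 0.44 to 0.91. H3c8, H3c7 and H3c3 also had single-gene probe sets, which were higher by 0.84, 0.65 and 1.40. That of H3c8 had a control mean of 1.64, under the level, and so had to differ in this direction.

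Of the 9 H2B probe sets 6 were higher, with a median of 0.56. H2bc13/H2bc15/H2bc11/H2bc7, among the brightest of all 759, read 10.52, 10.62 and 10.53 in the knockout and 9.90, 9.79 and 9.90 in control, 1.62-fold higher (limma adjusted p 0.00035). Of the 10 H2A probe sets 8 were higher, with a median of 0.51. The lowest of the H2A group, Trim17/H2aw, pairs a variant with a ubiquitin ligase gene and had a difference of -0.15 that did not pass (limma adjusted p 0.241). Of the 10 H4 probe sets 9 were higher, with a median of 0.38 and a range of 0.10 to 0.67, and 1 probe set each of mixed H2A and H3 and of mixed H1 and H2B was higher as well.

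For 2 of the H2A probe sets, led by H2ac23 and H2ac4, the control mean (1.79 and 1.73) lay under the level of 1.92 and the knockout mean (2.34 and 2.35) above it. These 2 entered through the knockout arrays and had to differ in that direction. They were the only passing probe sets of the 759 with 1 group mean under the level. The call on the histones does not rest on them, since 29 others were higher. Among the 22 single-gene histone probe sets fitted, 17 were higher and 1 lower, with a median of 0.63, and 2 of the 17 had a control mean under the level. Of the 6 probe sets in a list of replication, mitosis and cell cycle genes that is separate from the histones, 1 was higher (Tuba1b/Gm5620, tubulin, 0.24), 1 was lower (Ccnd1/Mir3962) and 4 did not pass. The call on Tuba1b/Gm5620 was lost without knockout replicate 1 (adjusted p 0.0541), without knockout replicate 3 (adjusted p 0.0635) and under a second quantile normalization (adjusted p 0.0768).

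**Figure D3:**
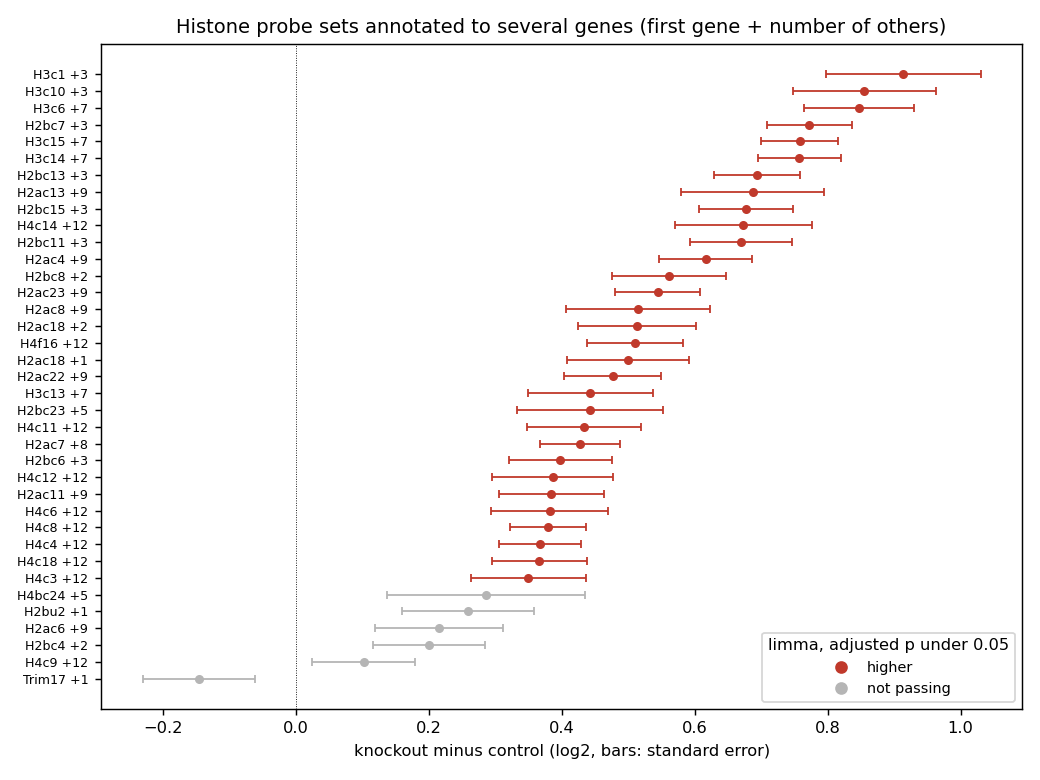
Difference between knockout and control mean (log2, x axis) of each of the 37 histone probe sets annotated to several genes, named by the first gene and the number of others, with the standard error from limma as bars and 3 arrays per group. The 31 red points passed, all to the right of 0, and the leftmost, Trim17/H2aw, is at -0.15.

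The start regions of the histone genes on these probe sets are described next. Their relation to the differences between the groups was not tested. The 150 bases before the annotated start (RefSeq, GRCm38.p6) are shown for the first gene with 1 window on the highest probe set of each core histone, on the strand of the gene, with matches to CCAAT and to TATAAA on either strand in capitals (CCAAT reads ATTGG on the other strand, and TATAAA reads TTTATA). H3c11 is shown from chr13:21783398-21783547 (minus strand), H2bc7 from chr13:23574208-23574357 (minus strand), H2ac13 from chr13:21716262-21716411 (plus strand) and H4c17 from chr13:21811596-21811745 (plus strand).
H3c11: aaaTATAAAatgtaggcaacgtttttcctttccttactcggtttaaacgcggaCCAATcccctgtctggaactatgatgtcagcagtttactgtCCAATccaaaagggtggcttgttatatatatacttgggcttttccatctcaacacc
H2bc7: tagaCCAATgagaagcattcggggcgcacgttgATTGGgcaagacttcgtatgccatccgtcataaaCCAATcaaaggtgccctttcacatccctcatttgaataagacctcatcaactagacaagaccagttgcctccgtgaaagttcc
H2ac13: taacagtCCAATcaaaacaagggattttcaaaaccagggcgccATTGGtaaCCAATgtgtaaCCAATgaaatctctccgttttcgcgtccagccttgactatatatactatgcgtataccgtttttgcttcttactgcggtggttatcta
H4c17: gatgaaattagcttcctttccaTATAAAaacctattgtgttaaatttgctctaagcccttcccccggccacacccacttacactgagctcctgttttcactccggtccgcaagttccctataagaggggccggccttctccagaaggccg
CCAAT is the core of the box bound by the factor NF-Y, and TATAAA has the letters of a form of the TATA box. Matches were counted at any place in a window and on either strand, so a TATAAA counted here need not be a TATA box. In H3c11 and H4c17 the marked TATAAA lies toward the far end of the bases shown, away from the start. Of 46 histone genes looked up, 42 had a window, 43 windows in all, each with 250 bases before the start and 50 after it. CCAAT was in 34 of the 43 (79.1%) and in 37.4% of all 32851 windows in the table. TATAAA was in 23 of the 43 (53.5%) and in 13.6% of all windows. The letters describe the windows only, and no binding was measured.

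Genes with a pseudogene held the lowest value of the 759. Btg3/Gm7334 read 5.89, 5.70 and 5.89 in the knockout and 6.86, 6.80 and 6.84 in control, 2.01-fold lower (log2 difference -1.01 ± 0.07 SE, limma adjusted p 0.000116). Btg3 belongs to the BTG/TOB family, which restrains proliferation. Its own probe set was lower by a log2 difference of -1.18, while Gm7334 had none. Ptp4a1/Gm13363 pairs a phosphatase of the PRL family with a copy, and read 6.56, 6.58 and 6.63 against 7.20, 7.28 and 7.28, 1.58-fold lower (limma adjusted p 0.000329). Here Ptp4a1 had no probe set of its own, and the 3 that Gm13363 had were lower by -0.73, -0.44 and -0.44.

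Ass1/Gm5424 was the highest of this kind. Ass1 encodes argininosuccinate synthase, which makes the precursor of arginine. It read 7.69, 7.68 and 7.70 in the knockout and 7.03, 6.85 and 6.94 in control, 1.68-fold higher (limma adjusted p 0.000275), and the own probe set of Gm5424 was higher by 0.73. Ass1 had no probe set of its own. With 1 array left out, 8 to 17 of the 136 were higher and 5 to 7 lower. The numbers higher were 8 without knockout replicate 3, 10 without knockout replicate 1 and 10 without control replicate 2. The number lower was 5 without control replicate 1, control replicate 2 or knockout replicate 1, 6 without knockout replicate 2 and 7 without control replicate 3 or knockout replicate 3.

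Ribosomal proteins have many processed pseudogenes and gave 58 probe sets with other translation genes, of which 5 were higher and 1 lower, with a median of 0.11. Gm8210/Rpl29 read 9.54, 9.61 and 9.58 in the knockout and 9.29, 9.20 and 9.21 in control, 1.27-fold higher (limma adjusted p 0.00611). Rplp1/Gm13777, which includes a stalk protein of the large subunit, had a difference of 0.25 (limma adjusted p 0.0267) and was called in only 1 of 6 fits with an array left out. Of the 6 calls in this list only that on Gm8210/Rpl29 was made in all 6 of those fits. The share called, 10.3%, was under the 24.9% of all probe sets. Of 12 spliceosome and RNA-binding probe sets 1 was lower, Ddx5/Mir3064 above, and 2 were higher, Snrpd2/Gm5848 at 0.29 and Haus5/Rbm42 at 0.23, called in 2 and 0 of those fits. Of 25 with zinc finger genes 6 were higher and 2 lower, the lowest being Zbtb20/Mir568 and the next Zfp91/Cntf/Gm44505 at -0.41, which spans a zinc finger gene and the gene of a ciliary neurotrophic factor. Of the 6 higher ones, only Zfp708/Rslcan18 (0.38) was called with each array left out. Several of the 6 hold the same genes, Zfp966, Zfp967 and Zfp971, some with the same group means, and so are not independent.

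Genes of energy metabolism were on 2 groups of probe sets. Of 7 probe sets with nuclear genes of oxidative phosphorylation and mitochondria 3 were higher and 0 lower, with a median of 0.24, against 11.5% higher and 13.4% lower over all probe sets fitted. The 3 were Ndufa11/Ndufa11b, a subunit of respiratory complex I, at 0.36 (limma adjusted p 0.0255), and Ccdc142/Mrpl53 at 0.30 and Mrpl30/Gm6238 at 0.32, both with a mitochondrial ribosome protein. None of the 3 calls was made in all 6 fits with an array left out (5 for Ccdc142/Mrpl53, 2 for each of the others). The genes of the mitochondrial genome itself are read as 1 long transcript and were on 3 shared probe sets. ND5/CYTB, subunits of complexes I and III, read 9.08, 9.11 and 9.15 in the knockout and 9.43, 9.51 and 9.48 in control, a difference of -0.36 ± 0.06 SE (limma adjusted p 0.00473), and ND4/ND4L was lower by -0.28 (adjusted p 0.014). ATP8/ATP6/COX3 overlapped between groups at 0.06 (adjusted p 0.658). ND4/ND4L passed in 5 of the 6 fits with an array left out.

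Like-named coding genes are those whose symbols share the letters before the first digit, which genes with provisional Gm symbols also do. Their likeness in sequence was not examined. Evi2a/Evi2b/Evi2, membrane protein genes at a retroviral integration site, read 3.95, 3.81 and 4.05 in the knockout and 4.81, 4.53 and 4.63 in control, 1.64-fold lower (log2 difference -0.72 ± 0.09 SE, limma adjusted p 0.00179). The 4 probe sets of Dynlt1a, Dynlt1b, Dynlt1c and Dynlt1f, copies of a dynein light chain, were all higher, by 0.43, 0.44, 0.49 and 0.51. These share the same 4 genes and count as 1 observation, and the single probe set of Dynlt1b alone, with a control mean of 2.60, had a difference of 0.03 (limma adjusted p 0.808). The Dynlt1 probe sets were chosen after their values were seen. Chd2/Chaserr, a chromatin remodeller and the non-coding RNA beside it that holds it in check, read 5.13, 4.88 and 5.04 against 5.68, 5.63 and 5.60, 1.54-fold lower (limma adjusted p 0.00142).

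The count of like-named probe sets that were higher depended on single arrays. It was 27 of 174 with all arrays, 4 without knockout replicate 3, 5 without control replicate 2, 8 without knockout replicate 1, 9 without control replicate 1, 15 without control replicate 3 and 31 without knockout replicate 2. The number lower was 14 and went from 10 to 15. Some of the higher like-named probe sets hold the same genes and are not independent, such as those with Zfp966, Zfp967 and Zfp971 or with Gm2004, Gm14295 and Gm14419. Among the 121 with unlike names 15 were higher and 7 lower with all arrays. With 1 left out, 4 were higher without knockout replicate 1, knockout replicate 3 or control replicate 2, 5 without control replicate 3, 9 without knockout replicate 2 and 10 without control replicate 1. The number lower there was 3 without knockout replicate 3, control replicate 1 or control replicate 2 and 4 without knockout replicate 2.

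In the list of interferon response and immune GTPase genes, 5 of 15 probe sets were lower, 1 was higher and the other 9 missed the threshold, at a median of -0.07. Over all probe sets fitted 13.4% were lower and 11.5% higher, and 2 of the 5 lower calls, described below, were lost in most fits with an array left out. The Qa-2 genes of non-classical MHC class I, which encode peptide-presenting surface proteins, had 3 of the lower ones. H2-Q8/H2-Q6 read 7.71, 7.76 and 7.70 in the knockout and 8.21, 8.20 and 8.07 in control, 1.35-fold lower (limma adjusted p 0.00321), and H2-Q7/H2-Q9 and H2-Q5/H2-Q7 were lower by -0.31 and -0.29. H2-Q7 is on both of the latter, so they are not independent.

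Gbp10/Gbp6, guanylate-binding proteins induced by interferon, read 2.85, 2.89 and 2.98 against 3.30, 3.11 and 3.31 (log2 difference -0.33 ± 0.08 SE, limma adjusted p 0.0185), a call lost without control replicate 1 (adjusted p 0.0552), control replicate 3 (0.0552), knockout replicate 1 (0.0643) or knockout replicate 2 (0.0513). The fifth lower member, Ifi203/LOC100862473/Ifi203-ps, was at -0.26 and was called in none of the 6 fits with an array left out. It was named to complete the count, after its value was seen. Ifi47/Olfr56, an interferon-inducible GTPase with an olfactory receptor gene, was the member that was higher, at 0.28 (limma adjusted p 0.0207), and was called in 3 of those 6 fits.

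Haemoglobin genes had no probe set of their own. Alpha-globin, Hba-a2/Hba-a1, was on 2 probe sets that read 4.26 to 4.40 and 4.36 to 4.45 in the knockout and 4.63 to 4.92 and 4.71 to 4.90 in control, with differences of -0.43 and -0.41 (limma adjusted p 0.01 and 0.00582). The groups did not overlap in either. Beta-globin, Hbb-bs/Hbb-b1/Hbb-bt/Hbb-b2, read 4.19, 4.14 and 4.23 against 4.41, 4.25 and 4.32, a difference of -0.14 that did not pass (limma adjusted p 0.172). Of the 3 erythroblast markers with a probe set of their own 1 was higher, the transcription factor Klf1 at 0.43, 1 did not pass and 1 lay under the level. The part of red cell precursors in the globin values was not tested. The list of megakaryocyte, erythroid and mast cell genes had 5 probe sets, 2 lower and 0 higher, against 13.4% lower over all probe sets fitted. In it Gp1bb/Septin5 had a difference of 0.10 that did not pass (limma adjusted p 0.261). Of 4 megakaryocyte markers with a probe set of their own 2 were higher, Itga2b at 0.56 and Pf4 at 0.38, and 2 did not pass.

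Of the 7 probe sets with antigen receptor, olfactory or vomeronasal genes 4 were higher and 0 lower, and 3 of the 4 span immunoglobulin segments. Over all probe sets fitted 11.5% were higher and 13.4% lower. With 1 array left out, 3 to 5 of the 7 were higher and 0 lower. Igha/Ighv14-2/Ighg2c/Ighj4/Ighj3/Ighj2/Ighj1/Ighd read 5.55, 5.51 and 5.44 in the knockout and 4.89, 4.76 and 4.81 in control, 1.60-fold higher (limma adjusted p 0.000424). Ighm/Ighg3 read 3.03, 3.0 and 2.98 against 2.62, 2.57 and 2.53, 1.34-fold higher (limma adjusted p 0.00234). Of 6 B cell markers 1 was higher (Cd79b, 0.26), 4 did not pass and 1, Ms4a1, lay under the level. Their mean log2 level per array was 3.40 to 3.41 in the knockout and 3.38 to 3.42 in control. The list of myeloid and granule genes, which did not hold Mir223 or Slpi, had 3 probe sets, all of the Pira and Pirb family of paired immunoglobulin-like receptors. They had differences of -0.01 to 0.09, and none passed.

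A check on shared values was possible where a gene on a shared probe set also had one of its own. There were 337 such pairs, from 212 shared probe sets and 219 genes, with antigen receptor genes left out. In some pairs the own and the shared probe set had the same group means, so their agreement was fixed in advance. Examples are Mir467a-1/Mir467a-2 with Mir467a-1, Mir683-1/Mir683-2 with Mir683-2 and Rps12-ps11/Rps12-ps13 with Rps12-ps13. Those pairs were kept in the counts and correlations. In 36 pairs both probe sets were higher (2 of them with the own control mean under the level), in 10 both were lower, and in 0 did they pass in opposite directions. In 32 pairs only the shared probe set passed (19 higher, 13 lower), in 36 only the gene's own (24 higher, 12 lower), and in 223 neither did. Across the pairs the differences had a Pearson correlation of 0.76 and a Spearman correlation of 0.73, given as a description, since the pairs share the arrays and many share a probe set.

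Agreement was not general. H2ac18/H2ac19 was higher by 0.50, with means of 8.29 in the knockout and 7.79 in control. The own probe set of H2ac19 was far dimmer, at 3.17 and 3.23, and differed by -0.06 (limma adjusted p 0.729). That of H2ac18, also dim at 2.91 and 2.68, differed by 0.22 and did not pass (limma adjusted p 0.0773). Gm20783/Ppp2r3d differed by -0.15 and did not pass (adjusted p 0.134), while Ppp2r3d, a regulatory subunit of a protein phosphatase, had 3 probe sets of its own: 1 was lower at -0.87 (adjusted p 0.00698), and those at -0.45 (adjusted p 0.0544) and -0.28 (adjusted p 0.0583) did not pass. Mir1900/Icam4 differed by 0.12 (adjusted p 0.39), and Icam4, an adhesion molecule of red cells, was higher by 0.58 in its own (adjusted p 0.00421). These 3 were chosen after their values were seen and do not have the widest gaps, and the gap itself was not tested. H3c3 was higher by 1.40 alone and by 0.44 in H3c13/H3c6/H3c2/H3c4/H3c3/H3c7/H3c15/H3c14. Signs differed in some pairs in which only the gene's own probe set passed. Junb/Prdx2 differed by -0.25 and Prdx2 alone by 0.23 (limma adjusted p 0.0307). Mterf1a/Mterf1b differed by -0.18 and Mterf1b alone by 0.32 (limma adjusted p 0.0274).

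**Figure D4:**
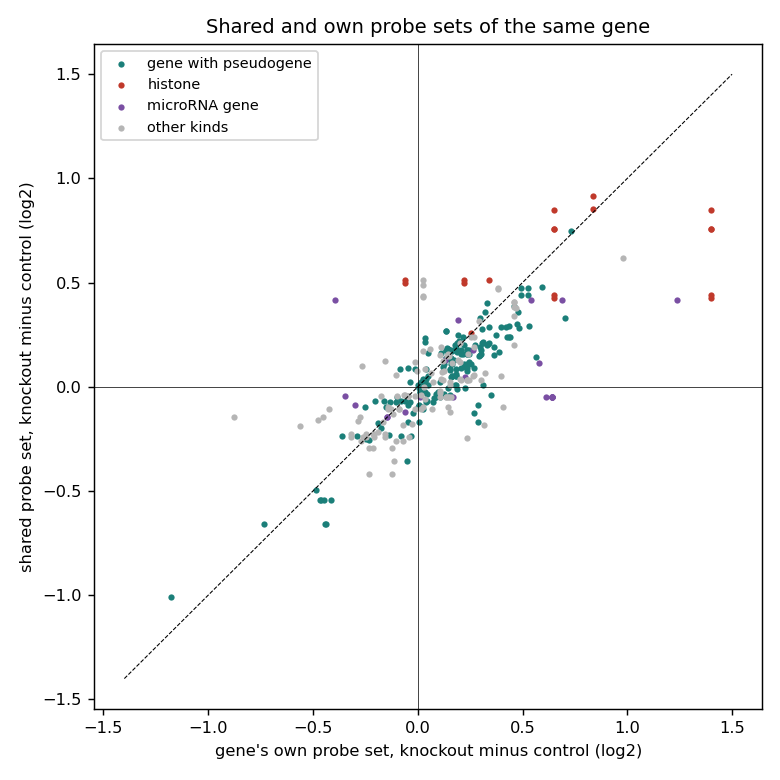
Each point is a pair of a shared probe set and an own probe set of a gene on it, so a gene can give several points. The x axis is the difference between knockout and control in the own probe set and the y axis that in the shared one. Both are in log2 units with 3 arrays per group, and the dashed line marks equal values. The 337 pairs come from 219 genes and have a Pearson correlation of 0.76, which does not measure how near they lie to the dashed line. Histone genes lie at the upper right with exceptions.

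The identity of the genes set a further limit. The 759 probe sets carried 1504 Entrez IDs, of which 97 are no longer in the RefSeq table, and 37 probe sets had fewer than 2 current genes. Of the 1407 current genes, 1171 had no probe set of their own and 236 had one. By type, 806 of 907 protein-coding genes, 194 of 202 microRNAs, 44 of 46 small nucleolar RNAs and 65 of 66 long non-coding RNAs on these probe sets had none, but only 15 of 95 pseudogenes and 35 of 72 transcribed pseudogenes. Most probe sets, 520, had 2 Entrez IDs, 83 had 5 or more and the largest number was 13. On all 6 arrays 29 probe sets had values identical to those of another, which gave 13 distinct profiles.

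Just inside the level threshold were Mir467a-1/Mir467a-2 and Mir467a-2/Mir467a-5/Mir467a-9, both with a mean of 1.92 and identical values, and just outside were Scarna3a/Mir1843b (1.91) and Gm4340/Gm21293 (1.89). No probe set of the 759 held Nfkb1, Kit or another gene of a list of NF-kB pathway and inflammatory genes, and none held a protocadherin or glucuronosyltransferase cluster gene.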

How the data were processed

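Each of 6 arrays measured RNA of sorted LSK cells. The values used are the log2 values that the authors deposited for each array, made with RMA per the submitters' processing notes, a method that corrects background and gives all arrays 1 intensity distribution, so that a shift shared by most transcripts would be removed. Its version and the genome build are not given in the sources used here, and the log base was read as 2 from the range of values. Groups and replicate numbers came from the sample titles. Array medians lay between 1.89 and 1.95. For arrays no count stands behind a value, and their number limits the precision.

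Genes came from GEO's platform annotation, with current names taken from RefSeq (GRCm38.p6) by Entrez ID, in which 1407 of 1504 IDs matched. A gene has its own probe set where 1 is annotated to that gene alone. Probe sets under the median mean of 1.92 were left out, and 32985 were fitted with limma 3.58.1 in R 4.3.3 (lmFit, eBayes, two-sided, Benjamini-Hochberg over all fitted). The fit was tested on simulated data. Values after ± are standard errors. An exact permutation test of 3 arrays against 3 cannot go below 0.1, so none is given. The members, lists and tests were chosen with earlier results of these data known.

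The naming rule took the 10 highest and 10 lowest passing members of a certain make-up. Each had to hold a gene with no probe set of its own and a gene without a provisional symbol, antigen receptor and olfactory genes aside. The rule also took the 4 members of each list with the lowest p and those just inside and outside the level. Any with Nfkb1, Ly6a, Mir21a, Kit or an NF-kB gene were taken too. Not all members taken are described above. Those left out include H2bc7/H2bc15/H2bc13/H2bc11, which passed, and Ndufb4/Ndufb4b/Ndufb4c, which did not. Alternatives were the filter on dim probe sets, scaling, spread model, replicate block, definition of a member and leaving out each array.

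Same-numbered arrays of the 2 groups had correlations of their deviations from the group means of 0.17, 0.20 and 0.07, so the numbers were not taken to pair the samples.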

Additional observations from a re-analysis of the deposited data

How the results depend on the processing

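The counts of 129 higher, 67 lower and 193 passing probe sets with a gene that has no probe set of its own came to 70, 47 and 116 with exactly 2 annotated genes, a smaller set. With a fold of at least 1.5 and an unadjusted p under 0.05 as the rule they came to 19, 7 and 26. Leaving out 1 array, which also leaves fewer arrays to estimate the spread, gave 67 to 116 higher, 43 to 54 lower and 112 to 160 with such a gene. With no filter on dim probe sets they were 106, 56 and 159, and under the other scalings, filters and spread models run 108 to 160 higher and 64 to 72 lower. The median difference of the members stayed above 0 in each fit, at 0.03 to 0.07. That of all probe sets fitted did too, at 0.02 to 0.05. The 2 alternatives chosen after seeing the data, members with at least 2 current genes and members with identical values counted once, gave 124 and 65, and 128 and 66.

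With the replicate number as a block, 147 members were higher, 71 lower and 215 of those passing held such a gene, and no named call changed. Each array correlated best with its own number in the other group, a hint from the data and not from the design. No named member changed direction under any alternative run. With 3 arrays per group, differences near 0.2 were often lost when 1 array was left out, and dim probe sets near the level have little signal over background.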
